A study of Rattus norvegicus with 8 samples.

Results

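The choroid plexus markers are 9 genes typical of choroid plexus epithelium, listed by symbol: Ttr, Kcnj13, Kl, Clic6, Folr1, Otx2, Aqp1, Sostdc1 and Slc4a5. For each gene the probe set named by that symbol alone was taken, and the brightest by mean over the arrays where there were several. Of the 9 genes, 8 had such a probe set, 1 each, among 14506 genes with a named probe set, and Otx2 was not analysed here. The hypothalamus was taken from female Sprague-Dawley rats aged 21 days and measured on 8 arrays in 4 groups of 2, each with a replicate A and a replicate B. Con-s and Con-l were offspring of normally fed mothers, given saline or leptin on postnatal days 2 to 8. CR-s and CR-l were offspring of mothers whose calories were cut by 50% from gestation day 11 to 21 and who stayed restricted after birth, and they received saline or leptin on the same days. The labels do not say whether an RNA sample pools animals or litters, and the sample names can also be read as treatment of the mothers, so the error of each test is the spread among these 8 samples, which may be technical.

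The choroid plexus is a folded epithelium that hangs into the brain ventricles and makes cerebrospinal fluid. Its cells take salt, bicarbonate and water from leaky capillaries and move them across into the ventricle, and they also secrete carrier proteins and hormones into the fluid. Ttr, the thyroid hormone and retinol carrier transthyretin, is their best known product, and its transcript is used as a sign of plexus tissue in brain samples. Otx2 is a homeodomain transcription factor needed to form and maintain the plexus. The hypothalamus borders the third ventricle, so a dissected sample can carry some plexus and some of the covering meninges.

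The sequences before the start of Kcnj13 and Ttr are shown because Kcnj13 was the marker that moved with maternal diet and Ttr is the defining marker. They are the 250 bases before the start in RefSeq's rat table (build GRCr8), with TAATC or its reverse complement GATTA, the core of the site bound by Otx-type homeodomain proteins, in capitals. The Kcnj13 stretch is chr9:95518987-95519236 on the minus strand and the Ttr stretch is chr18:12218508-12218757 on the plus strand. Both stretches lie inside the full annotated span of their gene (chr9:95509228-95528400 and chr18:12216684-12225972). The start used is thus an internal one, and distances are counted from it and not from the outer end of the gene.
Kcnj13: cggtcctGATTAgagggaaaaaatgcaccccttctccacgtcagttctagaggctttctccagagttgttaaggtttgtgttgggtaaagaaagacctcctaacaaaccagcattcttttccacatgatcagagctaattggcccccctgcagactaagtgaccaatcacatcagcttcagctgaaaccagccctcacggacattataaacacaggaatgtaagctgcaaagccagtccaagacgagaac
Ttr: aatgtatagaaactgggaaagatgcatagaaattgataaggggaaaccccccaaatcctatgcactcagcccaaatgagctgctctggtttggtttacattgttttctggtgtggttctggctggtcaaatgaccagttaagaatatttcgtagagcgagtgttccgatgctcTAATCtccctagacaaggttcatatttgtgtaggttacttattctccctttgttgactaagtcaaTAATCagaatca
The Ttr stretch held the core at 77 and at 12 bases before the start, both on the sense strand, and the Kcnj13 stretch held it 243 bases before the start on the antisense strand. RefSeq's table had 5 of the 9 markers, and 3 of these (Ttr, Kcnj13 and Kl) had the core, which stood in 20.5% of 33469 stretches of the same length. The longer form TAATCC, which contains the core, was searched on both strands too: it stood in 0 of the 5 and in 6.34% of all. These matches are letters in a window and were not tested as binding sites.

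Kcnj13, which encodes the inwardly rectifying potassium channel Kir7.1 of the epithelium's apical membrane, fell in restricted offspring. Its log2 level was 6.78 and 6.56 on Con-s replicates A and B, 7.24 and 6.62 on those of Con-l, 5.64 and 5.31 for CR-s, and 5.87 and 5.71 for CR-l. All CR arrays lay below all Con arrays, and Con-l replicate A was the highest. Averaged over saline and leptin the level was 2.25-fold lower in restricted offspring (log2 -1.17, SE 0.14, 95% confidence interval -1.51 to -0.83, adjusted p = 0.0223, limma over all 14506 genes, 4 arrays against 4). It was the only member to pass at an adjusted p under 0.05, 1 of 8, where 1.21% of all genes passed. It was also the only member whose CR and Con arrays did not overlap, where 11.2% of all genes showed none. The difference kept its direction in each of the 8 fits without 1 array (log2 -1.32 to -1.01), but it passed only in that without Con-l replicate B (adjusted p = 0.0226). In the fits without any other single array the adjusted p lay between 0.0593 (Con-l replicate A) and 0.0951 (Con-s replicate B). Tested among all probe sets it had an adjusted p of 0.0788 and did not pass.

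The fall of Kcnj13 had nearly the same size under either treatment. CR-s lay at 5.48 ± 0.23 (SD, n = 2) and Con-s at 6.67 ± 0.15, a log2 difference of -1.20 (SE 0.20, adjusted p = 0.255 with limma). CR-l lay at 5.79 ± 0.11 and Con-l at 6.93 ± 0.44, a difference of -1.14 (SE 0.20, adjusted p = 0.0981 with limma). Neither passed with 2 arrays against 2, and both passed with limma's trend and robust settings (adjusted p = 0.0431 and 0.0188). The 2 diet differences did not differ from each other beyond the error (interaction 0.06, 95% interval -0.62 to 0.74, adjusted p = 0.989 with limma). With leptin Kcnj13 measured 0.32 more than with saline in restricted offspring (SE 0.20, adjusted p = 0.83) and 0.26 more in controls (SE 0.20, adjusted p = 0.997), and neither passed with limma. Without Con-l replicate A the value in controls was -0.05.

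**Figure D1:**
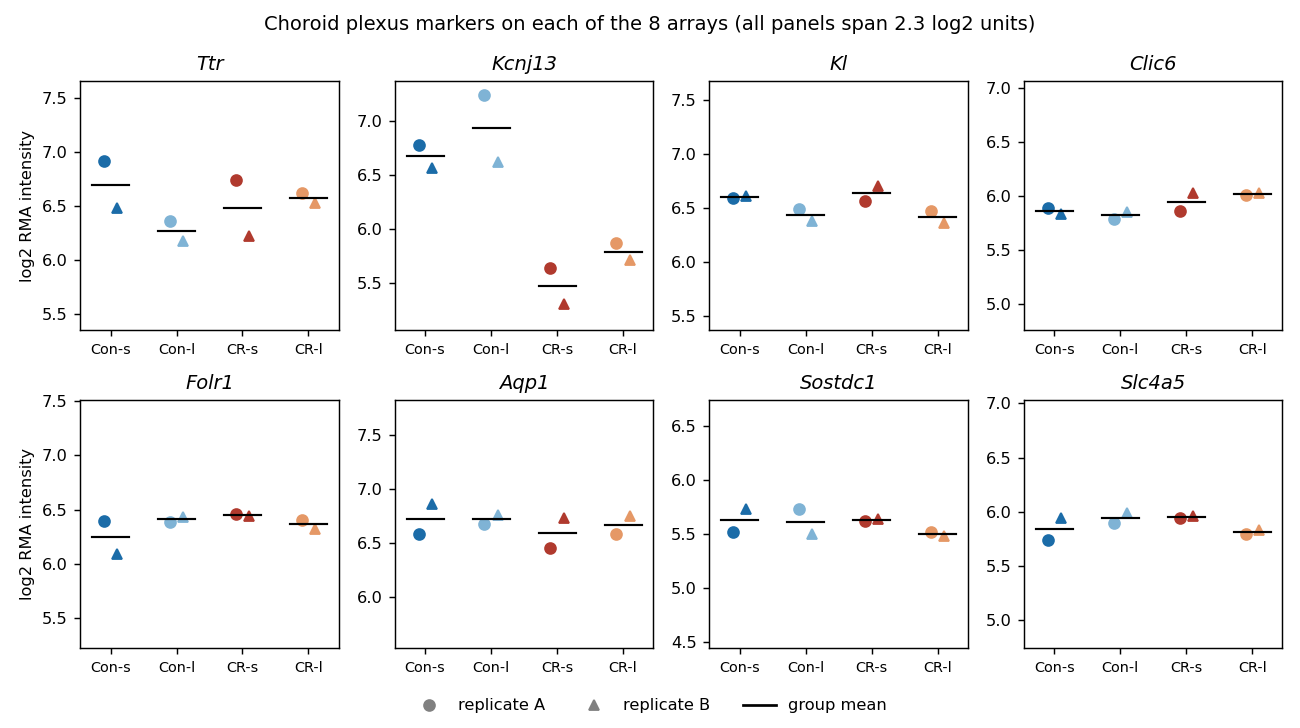
Log2 RMA intensity (vertical axis) of the 8 measured choroid plexus markers in each of the 4 groups (horizontal axis), a circle for replicate A, a triangle for replicate B and a bar for the group mean. Every panel spans the same width on the log2 scale. Kcnj13 steps down from 6.56 or more on the Con arrays to 5.87 or less on the CR arrays, while the groups of the other markers lie close together.

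Ttr did not show this step. Its log2 level was 6.92 and 6.48 on Con-s replicates A and B, 6.36 and 6.18 on Con-l, 6.74 and 6.22 on CR-s, and 6.62 and 6.53 on CR-l. The diet groups overlapped over most of their range, and the 2 arrays of a saline group lay further apart (0.44 in Con-s and 0.51 in CR-s) than any 2 of the group means, which ran from 6.27 to 6.70. The averaged diet difference was 0.04 (SE 0.14, 95% interval -0.28 to 0.37, adjusted p = 0.912 with limma). That interval leaves out a change in signal as large as that of Kcnj13 in either direction. The Ttr probe set is dim, and dim probe sets compress differences, so the interval does not bound the change in transcript. The diet difference of Ttr was -0.22 under saline (adjusted p = 0.803 with limma) and 0.31 under leptin (adjusted p = 0.538 with limma). The difference between these did not pass (interaction 0.52, SE 0.27, adjusted p = 0.898 with limma). Without Con-s replicate A the value under saline was 0.00, and without CR-s replicate B it was 0.04.

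The remaining channels and transporters of the secreting epithelium showed no diet difference that passed. Clic6, a chloride intracellular channel family member, came nearest. Its log2 level was 5.89 and 5.83 on Con-s replicates A and B, 5.78 and 5.85 on Con-l, 5.86 and 6.02 on CR-s, and 6.01 and 6.03 on CR-l. The difference was 0.14 (SE 0.05, unadjusted p = 0.0275, adjusted p = 0.247 with limma), and 3 of the 4 CR arrays lay above all Con arrays. Under leptin alone it was 0.20 (SE 0.07, unadjusted p = 0.0265, adjusted p = 0.279 with limma). Aqp1, the water channel of the apical membrane, ranged from 6.58 to 6.86 on the Con arrays and from 6.45 to 6.75 on the CR arrays, a difference of -0.09 (SE 0.09). Slc4a5, a sodium bicarbonate cotransporter, ranged from 5.74 to 5.98 and from 5.79 to 5.96, a difference of -0.01 (SE 0.06). The Con and CR ranges overlapped for both genes, with the CR range of Slc4a5 inside its Con range.

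The receptor, hormone and secreted-factor markers were as flat with diet. Folr1, the folate receptor that carries folate into cerebrospinal fluid, ranged from 6.09 to 6.43 on the Con arrays and from 6.32 to 6.46 on the CR arrays, a difference of 0.08 (SE 0.07). Sostdc1, a secreted inhibitor of BMP and Wnt signalling, ranged from 5.50 to 5.73 and from 5.48 to 5.64, a difference of -0.05 (SE 0.07). Kl, the gene of the FGF23 co-receptor klotho, which is shed into the fluid, ranged from 6.38 to 6.61 and from 6.36 to 6.71, a difference of 0.01 (SE 0.05). Restricted offspring had the higher level for 4 of the 8 markers and the lower for the other 4, and the median difference was -0.00, where the median of all genes was 0.00. At an unadjusted p under 0.05 there were 2 markers, Kcnj13 and Clic6, in opposite directions, where 15.8% of all genes were counted.

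**Figure D2:**
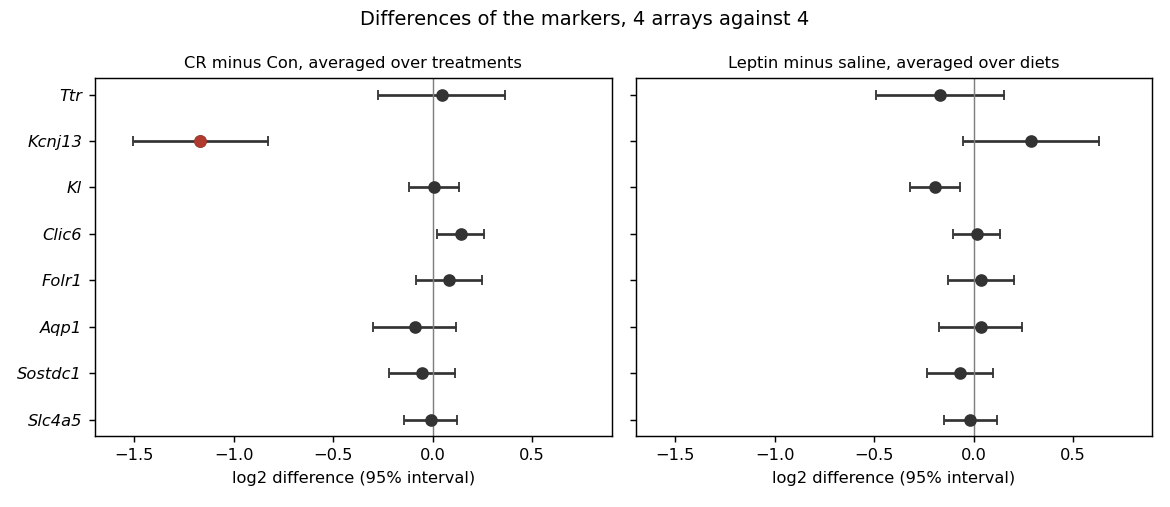
Log2 difference of each marker (points) with its 95% confidence interval from limma (bars), for CR minus Con averaged over treatments (left) and leptin minus saline averaged over diets (right), 4 arrays against 4. The red point, Kcnj13 at -1.17, is the value with an adjusted p under 0.05. The other diet intervals all include 0 except that of Clic6 (0.02 to 0.26), and of the leptin intervals that of Kl (-0.32 to -0.07) does not include 0.

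Early leptin moved no marker past the threshold. Kl had the smallest p. Its log2 level was 6.60 and 6.61 on Con-s replicates A and B, 6.57 and 6.71 on CR-s, 6.50 and 6.38 on Con-l, and 6.47 and 6.36 on CR-l. All 4 leptin arrays lay below all 4 saline arrays, which held for 1 of the 8 markers and for 2.37% of all genes. Averaged over diets the log2 difference was -0.19 (SE 0.05, 95% interval -0.32 to -0.07, unadjusted p = 0.00872, adjusted p = 0.913 with limma). It was -0.22 in restricted offspring (SE 0.08, adjusted p = 0.808) and -0.17 in controls (SE 0.08, adjusted p = 0.997), so the 2 estimates lay within their errors of each other and neither passed with limma. Ttr differed by -0.17 averaged over diets (SE 0.14, adjusted p = 0.916 with limma) and by -0.43 in controls alone (SE 0.19, unadjusted p = 0.0603, adjusted p = 0.997 with limma).

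With limma 0 of 8 markers passed under leptin averaged over diets, in restricted offspring, in controls and in the interaction, and 0% of all genes did in each. At an unadjusted p under 0.05 the counts were 1 marker averaged over diets and 1 in restricted offspring, in each case Kl, and 0 in controls and 0 in the interaction. The shares of all genes were 4.87%, 5.85%, 4.19% and 5.15%. Slc4a5 had the smallest interaction p (-0.23, SE 0.11, unadjusted p = 0.0769, adjusted p = 0.898 with limma). In the diet comparisons within a treatment 0 of 8 markers passed as well, where 0% of all genes passed under saline and 0.0207% under leptin. Unadjusted, 1 marker (Kcnj13, 8.5% of all genes) was counted under saline, and 2 (Kcnj13 and Clic6, 14.2% of all genes) under leptin.

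All 8 markers had dim probe sets in these samples. Their mean log2 level lay between 5.59 (Sostdc1) and 6.67 (Aqp1), at the 19.8th to 36.6th percentile of gene means, with Ttr at the 34.1st. None was among the upper 60% of genes by mean, which began at 6.88. For a lower reference, 1187 olfactory and vomeronasal receptor genes, a class chosen after the values were seen because it is made in nasal sensory neurons, had a median of 4.17 and a 95th percentile of 5.84. By their means over the 8 arrays, 7 of the 8 markers lay above the latter. Kcnj13 did so (6.22) through its Con arrays: its CR arrays ran from 5.31 to 5.87, with a mean of 5.63 that lay below that percentile. Slc4a5 (mean 5.89) and Clic6 (mean 5.91) lay close above that percentile, each with arrays below it (down to 5.74 and 5.78). Of 13 genes of hypothalamic neurons 11 were among the upper 60%. Probe sets differ in affinity and the table holds no detection call, so these positions describe signals and give no order of transcript amounts. In bulk tissue, fewer cells of a type and less RNA per cell cannot be told apart.

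**Figure D3:**
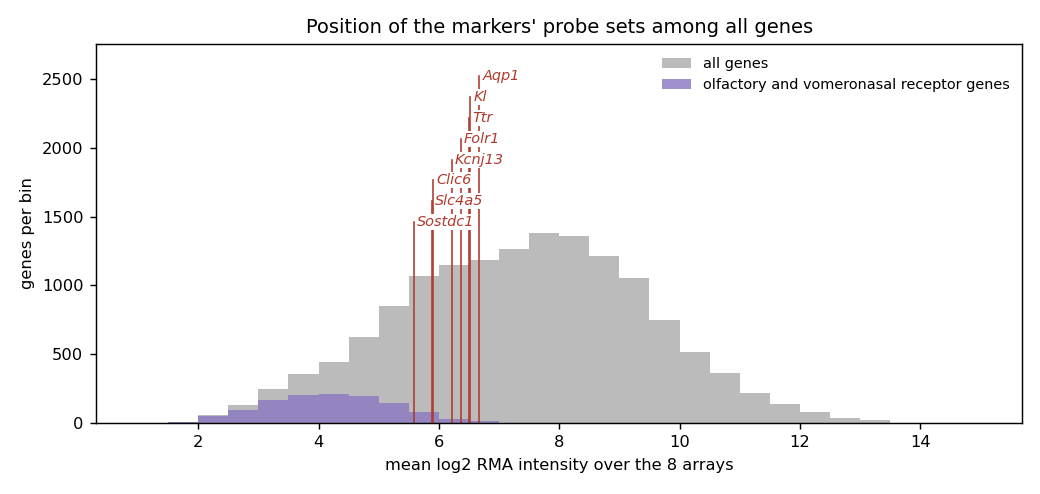
Number of genes (vertical axis) by mean log2 RMA intensity over the 8 arrays (horizontal axis, bins of 0.5), for all 14506 genes in grey and for 1187 olfactory and vomeronasal receptor genes in violet. Red lines mark the means of the 8 markers, which all lie below 6.88, the value at which the upper 60% of genes begin.

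No pair of markers moved together past the test from array to array. Of their 28 pairs, 21 do not involve Kcnj13, and their Pearson r over the 8 arrays ranged from -0.74 to 0.55 with a median of -0.03, 9 positive and 12 negative. No pair passed by an exact permutation test (two-sided, smallest adjusted p over the 28 pairs 0.539 for Pearson's r and 0.582 for Spearman's rho). Among the 21 pairs the largest r in size was negative, between Ttr and Slc4a5 (r = -0.74, exact permutation p = 0.0385, adjusted p = 0.539; rho = -0.81, exact permutation p = 0.0218, adjusted p = 0.582), and it was -0.35 without the 2 arrays farthest from the median of Ttr. Leaving out those arrays also narrows the range of Ttr, so the drop does not show that r rests on them. Without CR-s replicate A alone this pair stood at r = -0.93 (exact permutation p = 0.00218, adjusted p = 0.0611), the smallest adjusted p of the 8 runs without 1 array, which otherwise lay between 0.513 and 0.856. The largest positive was between Kl and Sostdc1 (r = 0.55, exact permutation p = 0.157, adjusted p = 0.754; rho = 0.71, exact permutation p = 0.0576, adjusted p = 0.582), and it was 0.44 without the 2 farthest arrays. Ttr and Aqp1 ran against each other without passing (r = -0.64, exact permutation p = 0.0875, adjusted p = 0.612; rho = -0.67, exact permutation p = 0.0831, adjusted p = 0.582), at -0.62 without the 2 farthest arrays. Apart from Kcnj13 (0.67) and Ttr (0.25), the markers had an SD over the 8 arrays of 0.09 (Slc4a5) to 0.13 (Aqp1). The median SD of all genes was 0.10. With signals that vary this little, the absence of a passing pair cannot show that the transcripts do not move together.

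For the 7 pairs with Kcnj13 no pooled r is given, because its arrays fall into separate clusters by diet and neither diet has 6 arrays. After each diet's mean was taken away, r of Kcnj13 with the other markers ranged from -0.45 (Slc4a5) to 0.25 (Ttr), with the smallest exact permutation p, within diets, at 0.295. Over all 28 pairs these deviations correlated between -0.74 and 0.58, 10 positive and 18 negative, and none had an unadjusted exact permutation p under 0.05. On each array 3 to 6 of the 8 markers lay above their own mean. Between the 2 replicates of a group, replicate A was the higher for 3 to 5 of the 8 markers. By marker, it was the higher in all 4 groups for Ttr and Kcnj13 and in 0 of the 4 for Aqp1 and Slc4a5. On deviations from the group means, r ran from -0.96 (Ttr with Aqp1) to 0.76 (Aqp1 with Slc4a5). It was 0.74 for Ttr with Kcnj13 and -0.73 for Ttr with Slc4a5. These values rest on 1 replicate difference per group and were not tested. Without Kcnj13, the mean deviation of the 7 others from their own means lay between 0.01 and 0.04 on the 4 saline arrays and between -0.05 and -0.01 on the 4 leptin arrays. This small difference was not tested, since the markers were chosen with results known. It came mainly from Kl and Ttr, whose leptin differences averaged over diets were -0.19 and -0.17. For the rest of the 7 they lay between -0.07 (Sostdc1) and 0.04 (Folr1), on both sides of 0.

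**Figure D4:**
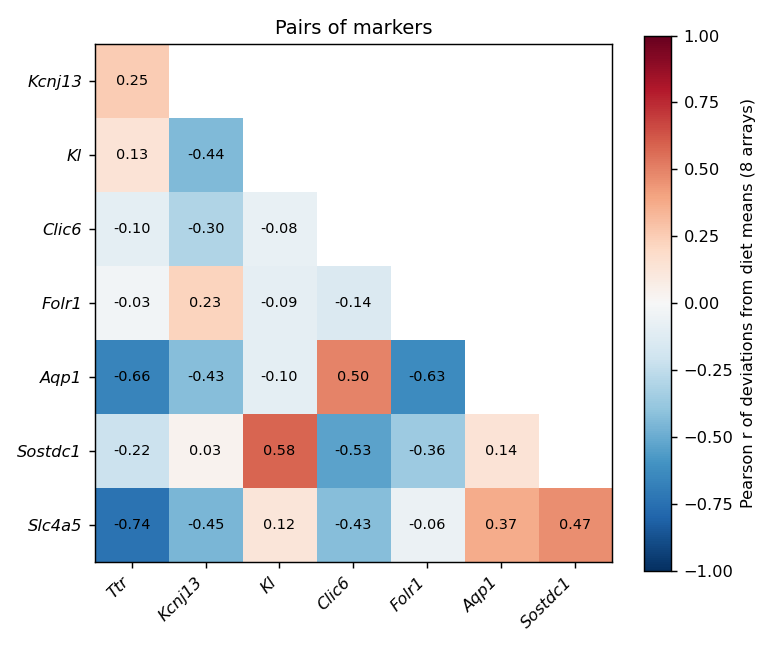
Pearson r for each of the 28 pairs of markers over the 8 arrays, after each diet's mean was subtracted (colour and printed value, from -1 in blue to 1 in red). Values run from -0.74 (Ttr with Slc4a5) to 0.58 (Kl with Sostdc1), with 18 of the 28 below 0.

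Other genes made by choroid plexus epithelium also went in both directions. Of 44 listed genes 36 were measured, and in the averaged diet comparison 18 were higher and 18 lower, with a median difference of -0.01. As a list they were slightly lower on the CR arrays. Their summed intensity was 21870 to 23180 on Con-s, 22990 to 23300 on Con-l, 21210 to 21590 on CR-s and 21100 to 21280 on CR-l. Their mean log2 deviation lay above 0 on each Con array (up to 0.05) and below 0 on each CR array (down to -0.06). This was not tested. Of the 36 genes, 0 passed higher and 2 passed lower, where 1.21% of all genes passed. At an unadjusted p under 0.05 there were 12 of them, where 15.8% of all genes were counted. Enpp2, which makes the lipid signal lysophosphatidic acid and is also a gene of oligodendrocytes, fell by 0.76 on the log2 scale (SE 0.06, adjusted p = 0.00977 with limma). Igfbp2, an IGF-binding protein also made by meninges, fell by 0.40 (SE 0.07, adjusted p = 0.0455 with limma). Kcne2, a potassium channel subunit of the same epithelium, differed by 0.18 (SE 0.10), and Slc12a2, the sodium potassium chloride cotransporter, by 0.03 (SE 0.05). Cldn2 and Cldn3, claudins of its tight junctions, differed by -0.14 (SE 0.11) and -0.13 (SE 0.08). Kcne2, Slc12a2 and the claudins were chosen with their values known, and none of the 4 passed. They do not stand for all transport genes of the list. Slc13a4 (-0.51) and Slc4a2 (-0.16) were lower and Slc4a10 (0.14) higher at an unadjusted p under 0.05 with limma, without passing. These too were chosen with their values known. Under leptin alone 1 of the 36 genes passed, where 0.0207% of all genes passed. It was Enpp2 (-0.90, SE 0.08, adjusted p = 0.0339 with limma).

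Markers of other cell types moved beside Kcnj13. Of 17 measured meningeal genes 15 were lower in restricted offspring (median -0.29), with 4 passing where 1.21% of all genes passed, a share that also stands beside the counts of the next lists: Ptgds (-1.54), Ogn (-1.21), Slc6a13 (-0.60) and Col1a2 (-0.32). The summed intensity of that list was 5947 to 6177 on the Con-s arrays, 5886 to 7659 for Con-l, 3477 to 3703 for CR-s and 3485 to 3892 for CR-l, and no listed gene was at 0. Con-l replicate A, the highest array for Kcnj13, also had the highest mean log2 level of the meningeal genes, 0.34 above their mean over the 8 arrays. This was not particular to them. Con-l replicate A was also highest for the endothelial genes, with a smaller deviation (0.10). For the other plexus genes it was nearly level with Con-s replicate B (0.050 and 0.049). For the tanycyte genes it was nearly level with CR-l replicate A (0.047 and 0.046). For ependymal, red blood cell, pineal or retinal, oligodendrocyte and neuron genes the highest was a different array. All 6 red blood cell genes were lower (median -1.23, 5 passing), among them the globin gene Hbb-b1 (-1.42), Ahsp (-1.46), Alas2 (-1.17) and Slc4a1 (-0.70). Their summed intensity was 4159 to 5821 on the Con-s arrays, 3846 to 4561 for Con-l, 2012 to 2019 for CR-s and 1358 to 2171 for CR-l. All 9 genes of mature oligodendrocytes were lower (median -0.25), with Ermn (-0.54), Cnp (-0.27) and Ugt8 (-0.28) the 3 that passed. Their sum was 40350 to 42110 on the Con-s arrays, 42910 to 43290 for Con-l, 34970 to 37970 for CR-s and 35090 to 35450 for CR-l. The part of these cell types in the difference of Kcnj13 was not tested.

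**Figure D5:**
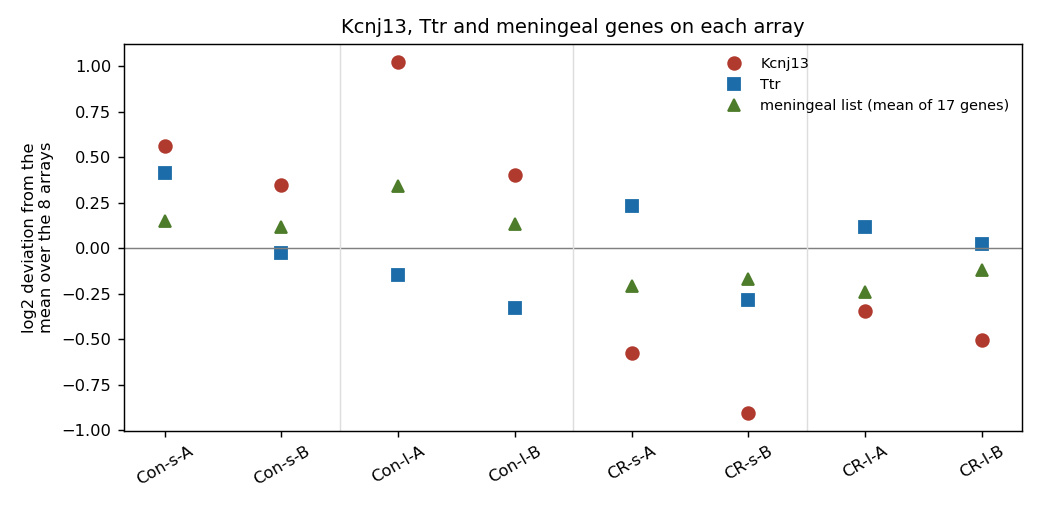
Deviation of each array from the mean over the 8 arrays on the log2 scale (vertical axis) for Kcnj13 (red circles), Ttr (blue squares) and the mean of 17 meningeal genes (green triangles), by array (horizontal axis). Kcnj13 and the meningeal genes lie above 0 on the 4 Con arrays and below 0 on the 4 CR arrays, whereas Ttr lies on both sides in each diet. The means of the red blood cell, oligodendrocyte and other plexus genes, not drawn, split by diet in the same direction.

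The remaining lists had genes in both directions with diet. Of 9 ependymal genes 5 were higher and 4 lower, of 7 tanycyte genes 5 higher and 2 lower, of 11 endothelial genes 4 higher and 7 lower, and of 8 pineal or retinal genes 5 higher and 3 lower, with 0 passing in each with limma. At an unadjusted p under 0.05 these lists had 1, 0, 3 and 0 genes, where 15.8% of all genes were counted. Their smallest p-values belonged to Rarres2 (-0.43) and Spag16 (0.17), Dio2 (0.13) and Scn7a (0.14), Kdr (-0.29) and Emcn (-0.18), and Rpe65 (0.48) and Bhlhe41 (0.10), in the order of the lists. Of 13 hypothalamic neuron genes 5 were higher and 8 lower, with 3 passing: the appetite peptides Npy (0.75) and Agrp (0.70) higher, and Oxt, the oxytocin gene, lower (-0.38). Within diets, after each diet's mean was taken away, 11 of the 17 meningeal genes correlated positively with Kcnj13 (median r 0.32 over 8 arrays). Endothelial genes did so in 8 of 11 cases (median 0.46), tanycyte genes in 4 of 7 (median 0.52), ependymal genes in 7 of 9 (median 0.29) and neuron genes in 7 of 13 (median 0.01). The counts were 0 of the 6 red blood cell genes (median -0.12), 1 of the 9 oligodendrocyte genes (median -0.27), 2 of the 8 pineal or retinal genes (median -0.33) and 18 of the 36 other plexus genes (median -0.01). All arrays share RNA preparation and normalization, so these values are a description.

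The genes with the pattern most like that of a marker were sought among the upper 60% of genes by mean, by Pearson r over the 8 arrays. For Kcnj13, of 8704 genes ranked, these were Ranbp6 (0.998), Tsc2 (0.985), C9h2orf72 (0.983), Dctd (0.978) and Polrmt (0.976). Because the diets form clusters, their r on deviations from the diet means is given too: it was 0.986, 0.944, 0.890, 0.934 and 0.867. The genes were picked for the highest r of 8704 on the same 8 arrays. High values of both kinds are favoured by that choice, and the second is no separate check. The diet differences of these genes were much smaller than that of Kcnj13, from -0.48 (C9h2orf72, adjusted p = 0.0336 with limma) to -0.07 (Tsc2, adjusted p = 0.458 with limma). For Ttr they were Vps37a (0.968), Camk1 (0.960), Hdac6 (0.959), Mrpl17 (0.951) and Polr2i (0.949), whose diet differences lay between -0.01 and 0.05. None of these 10 genes is in a list used here. In RefSeq's annotation Kcnj13 lies within the span of Gigyf2, a regulator of translation, which differed by -0.06 with diet (SE 0.06, adjusted p = 0.694 with limma).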

How the data were processed

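Total RNA from 8 hypothalamic samples was hybridised to Affymetrix Rat Gene 1.0 arrays. The deposited intensity values were made by the authors with RMA in Affymetrix Expression Console, per the submitters' processing notes (no version given); RMA and dim probe sets compress differences. They are linear (maximum 19807) and were log2-transformed here. Array medians were 111.8 to 114.1, the 2 replicates of a group correlated at 0.997 over genes, and the lowest correlation between any 2 arrays was 0.995. The number of arrays limits the precision. Of 29215 probe sets 15633 are listed in the platform annotation, 15310 with 1 gene symbol and 323 with several. Symbols were updated by Entrez number (15279 probe sets) or accession (6), and 25 kept the array's. The brightest probe set was kept per gene (14506 genes), with no filter.

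One limma model with 4 group means was fitted over all genes (limma 3.58.1, R 4.3.3, 4 residual and 3.21 prior degrees of freedom), two-sided, adjusted by Benjamini-Hochberg over all genes, and tested on simulated data. Correlations used all 40320 pairings, or 576 within diets. The markers, the 9 other gene lists and the settings were chosen with earlier results of these data known. Named genes were the 9 markers, list genes that passed in a comparison (up to 4 a list, else the 2 with the smallest p) and the 5 genes most like Ttr and Kcnj13; other genes are named with a statement that their values were known. Alternatives were cyclic loess, trend and robust settings, a filter on dim genes, all probe sets, a replicate block, diet as the only factor and leaving out each array. Over all genes the A minus B differences of 2 groups correlated between -0.06 and 0.11. Replicate A was nevertheless the higher in all 4 groups for Ttr and Kcnj13, and in 0 of the 4 for Aqp1 and Slc4a5. Whether the replicate letters pair the samples was not tested for the markers.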

Additional observations from a re-analysis of the deposited data

Results flagged for a closer look

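Among the 16 sets of 4 arrays of 1 diet (8 markers, Con and CR), 2 had an array far from the other 3 by Dixon's criterion, which chance meets in about 1 of 20 sets. Clic6 stood at 5.86 on CR-s replicate A, where the other CR arrays lay between 6.01 and 6.03. Folr1 stood at 6.09 on Con-s replicate B, where the other Con arrays lay between 6.39 and 6.43. No marker's response to leptin differed between the diets at an adjusted p under 0.05 in limma's interaction (0 of 8; unadjusted 0 of 8).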

How the results depend on the processing

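The number of markers past the threshold in the averaged diet comparison was 1 with cyclic loess, with trend and robust settings, with the replicate block (Kcnj13, adjusted p = 0.0233) and with diet as the only factor, and 0 with all probe sets. Without 1 array it was 0 to 1. With trend and robust settings it was 1 under saline and 1 under leptin, Kcnj13 in each. Over all genes the averaged diet comparison had 175 passing, against 166, 744, 87, 267 and 0 in the order of those settings, 609 among the upper 60% by mean and 0 to 27 without 1 array. Under leptin it had 3, against 24 with cyclic loess, 469 with trend and robust settings, 0 with the block or all probe sets and 249 among the upper 60%. Under saline it had 0, against 66 with trend and robust settings and 16 among the upper 60%. That filter holds no marker, so it gave the markers no value, and dimmer probe sets could not be tried because each marker has 1. Of the marker values without 1 array 167 kept direction and side of the threshold and 7 lost their call. The other 18 changed sign, in 7 results whose own value did not pass. Their ranges were -0.084 to 0.17 for Ttr, -0.11 to 0.0035 for Sostdc1, -0.062 to 0.043 for Slc4a5 and -0.028 to 0.040 for Kl with averaged diet, -0.48 to 0.040 for Ttr with diet under saline, -0.051 to 0.57 for Kcnj13 with leptin in controls and -0.25 to 0.37 for the interaction of Kcnj13. The replicate block changed no marker's call. No pair of markers passed by Spearman's rho, with cyclic loess, on deviations from the diet means or without any 1 array, though the smallest adjusted p fell from 0.539 to 0.0611 (Ttr with Slc4a5) without CR-s replicate A. The cause of the lost calls was not tested.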

Other observations

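Several other plexus genes had an unadjusted p under 0.05 in the averaged diet comparison without passing, and these were chosen after their values were seen. Igf2, a growth factor gene of plexus and meninges, differed by -0.57 (SE 0.12, adjusted p = 0.0887 with limma), the sulphate transporter gene Slc13a4 by -0.51 (SE 0.12, adjusted p = 0.104 with limma) and Car2, a carbonic anhydrase gene also active in oligodendrocytes, by -0.50 (SE 0.13, adjusted p = 0.125 with limma). On the higher side Htr2c, a serotonin receptor gene of plexus and neurons, differed by 0.19 (SE 0.05, adjusted p = 0.11 with limma), Perp by 0.20 (SE 0.05, adjusted p = 0.132 with limma) and Ace by 0.18 (SE 0.06, adjusted p = 0.214 with limma).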
